A study of Mus musculus with 14 samples.

Results

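Cohesin is a ring that entraps DNA. Its core is made of the ATPases Smc1a and Smc3, the closing subunit Rad21 and either Stag1 or Stag2, while Nipbl loads the ring, Wapl releases it and Pds5a and Pds5b regulate its turnover. The ring extrudes loops of chromatin until it meets Ctcf, a zinc finger protein that binds DNA and marks loop ends, and it also holds sister chromatids together. In blood formation, cohesin genes (STAG2, SMC1A, SMC3 and RAD21) are recurrently mutated in human myeloid malignancies, often beside NPM1 mutations. The chromatin of these 10 genes (Smc1a, Smc3, Rad21, Stag1, Stag2, Nipbl, Wapl, Pds5a, Pds5b and Ctcf) was examined here in mouse stem and progenitor cells. Their regions were chosen by position and level: a region of the mm10 build was a member when it overlapped the RefSeq bounds of a gene extended by 10000 bp on each side and its mean value over all libraries was at least 50. By this rule 24 of the 59189 regions at that level, and of 705361 regions in all, were members. The same bounds hold 288 regions of any level, so most were too low to be described.

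The data are ATAC-seq, in which a transposase cuts open chromatin and tags it for sequencing, from sorted bone marrow cells of C57BL/6J mice in 14 libraries. Long-term haematopoietic stem cells (LT-HSC) and the myeloid-biased multipotent progenitors MPP3 were each taken from 4 genotypes. These were WT (Mx-Cre), Dnmt3a-flR878H/+ (called Dnmt3a here), Npm1-frt/+ (called Npm1) and Dnmt3a-flR878H/+;Npm1-frt/+ (called Dnmt3a;Npm1). Young donor marrow of 1000000 cells was given to young, lethally irradiated CD45.1 recipients. Every recipient, the WT controls included, was given poly(I:C) after 4 weeks and tamoxifen after another 4 weeks, and marrow was taken 4 weeks later. Mx-Cre is a Cre driven by an interferon-inducible promoter that is active in blood cells and in other tissues, and the labels name it for WT only. There were 2 libraries, A and B, in 6 groups and a single library in LT-HSC Dnmt3a (B) and MPP3 Dnmt3a;Npm1 (B), so these 2 groups give no replicate spread. Nothing in the labels says whether A and B came from separate animals, so the spread between them may be technical.

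The deposited values are whole-number signal per region after a scaling by library, and their totals ran from 14683769 to 28748205. All values below, called normalised signal, were further divided by a scale factor per library (a trimmed mean of M values, TMM). The libraries differed in enrichment: the share of signal that fell in the 59189 tested regions was 56.5% and 40.7% for LT-HSC WT A and B, but 29.4% and 25.5% for LT-HSC Npm1 A and B, the lowest of all 14. The LT-HSC Dnmt3a library had 48.9% and those of Dnmt3a;Npm1 42.2% and 41.1%. MPP3 shares were 40.6% and 63.1% for WT, 31.8% and 37.1% for Dnmt3a, 43.4% and 55.9% for Npm1, and 46.7% for Dnmt3a;Npm1. The markers of the sorted cells followed the labels in part. Of 59 regions at 12 MPP3 and myeloid marker genes, 46 were higher in MPP3 (median log2 difference 0.42) and 3 were called higher, while of 94 regions at 12 LT-HSC marker genes 30 were higher in MPP3 (median -0.175) and none was called. In bulk libraries, fewer cells of a type and less open chromatin per cell cannot be told apart.

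For each gene the region that describes it best is that at its start, taken as the region of highest mean value within 1000 bp of the RefSeq start, or of either gene bound where the start is not given. This rule gave a region for 9 genes. For Nipbl it gave none, and the strongest of its 4 regions, which lies inside the gene and overlaps LOC102634078, stands in for it, a choice made after its values were seen. These 10 regions are called the leading regions, and the other 14 lay within the genes, across a bound or up to 10000 bp outside. Stag2 had 5 member regions, Nipbl 4, Smc3, Pds5b and Ctcf 3 each, Wapl 2, and Smc1a, Rad21, Stag1 and Pds5a 1 each. Apart from the one at the N4bp2l2 start, at a mean deposited value of 555.9, the other regions were weak, from 52.8 outside Pds5b to 380.3 outside Ctcf, against 297.4 to 985.4 for the leading regions. The RefSeq promoter table held 7 of the 10 genes. Rad21, Stag2 and Nipbl were the others. All 250 bases upstream of the start lay inside the leading region for each of the 7. The windows below are those of the 3 genes whose leading regions were called lower in LT-HSC Npm1, and of N4bp2l2, whose start is the remaining member region called there. They are shown 5′ to 3′ on the strand of the gene (RefSeq, GRCm38.p6), and the capitals mark the matches, on either strand, to the motifs searched.
Smc3 (chr19:53600146-53600395, plus strand): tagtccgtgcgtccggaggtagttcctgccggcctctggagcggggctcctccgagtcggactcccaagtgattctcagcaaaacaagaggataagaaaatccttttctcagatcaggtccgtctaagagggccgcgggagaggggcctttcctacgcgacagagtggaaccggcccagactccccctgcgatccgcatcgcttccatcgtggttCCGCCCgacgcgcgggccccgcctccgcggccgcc
Stag1 (chr9:100643198-100643447, plus strand): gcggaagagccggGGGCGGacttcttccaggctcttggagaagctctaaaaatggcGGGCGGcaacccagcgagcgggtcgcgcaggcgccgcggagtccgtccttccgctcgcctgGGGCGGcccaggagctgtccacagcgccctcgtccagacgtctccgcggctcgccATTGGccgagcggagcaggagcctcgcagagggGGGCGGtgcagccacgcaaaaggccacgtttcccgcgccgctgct
Ctcf (chr8:105636288-105636537, plus strand): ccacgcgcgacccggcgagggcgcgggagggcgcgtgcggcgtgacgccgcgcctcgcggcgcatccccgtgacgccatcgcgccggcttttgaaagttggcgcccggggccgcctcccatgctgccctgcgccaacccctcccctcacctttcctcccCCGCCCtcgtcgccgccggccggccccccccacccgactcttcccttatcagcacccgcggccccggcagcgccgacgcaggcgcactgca
N4bp2l2 (chr5:150665613-150665862, minus strand): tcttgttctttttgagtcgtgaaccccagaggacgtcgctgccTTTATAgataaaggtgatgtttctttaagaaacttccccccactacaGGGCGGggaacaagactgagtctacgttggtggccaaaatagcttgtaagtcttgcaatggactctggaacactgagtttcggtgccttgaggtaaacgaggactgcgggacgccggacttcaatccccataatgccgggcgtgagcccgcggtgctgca

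The motifs were GGGCGG (the GC box of Sp and Klf factors), CCAAT (NF-Y), TGCGCATGC (NRF1), CCGGAAG (ETS factors), AAGATGGC (YY1), TGACGTCA (CREB), TATAAA (the TATA box) and AGGGGGC (a core of the Ctcf motif), searched on both strands, and no match here overlapped another motif. GGGCGG was found in 7 of the 7 cohesin and Ctcf windows, against 32.7% of 32817 mouse windows of the same length. Smc3 and Ctcf each held a single match, on the minus strand, while Stag1 held 4 on the plus strand. CCAAT was found in 4 of 7, at Smc1a, Stag1, Wapl and Pds5b, against 33.8%. AGGGGGC was found once, 129 bases upstream of Pds5b, against 9.4%. TATAAA was in none of the 7 against 12.4%, but in the N4bp2l2 window. CCGGAAG (6.9% of all windows), AAGATGGC (1.6%), TGACGTCA (1.5%) and TGCGCATGC (1.3%) were in none. The 7 windows were rich in G and C, from 56.8% at Smc1a to 80.4% at Pds5a against a median of 52.4%, and held 16 to 44 CG dinucleotides against a median of 6. A GC box is more likely by base composition alone in such windows, and the share was not matched for it. A match is a run of letters and not a shown binding site.

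Smc3, one of the ATPases of the ring, has its leading region at chr19:53599700-53601072, across the gene start. Its normalised signal in LT-HSC was 833.9 and 511.3 for WT A and B, 658.0 for Dnmt3a, 236.1 and 157.6 for Npm1 A and B, and 432.9 and 709.5 for Dnmt3a;Npm1 A and B. In MPP3 it was 420.8 and 881.2 for WT, 336.4 and 609.8 for Dnmt3a, 597.1 and 763.3 for Npm1 and 582.7 for Dnmt3a;Npm1. Both Npm1 libraries of LT-HSC, which are those of lowest enrichment, lay below all other 12 libraries. This held at 5 of the 10 leading regions: Smc3, Nipbl, Wapl, Pds5a and Ctcf. The share of all tested regions with this order was not counted, so it cannot be read as particular to these genes. In the 8 libraries whose scaling could be undone, WT A and B held 559 and 276 reads in the Smc3 leading region and LT-HSC Npm1 A 63. These reads are not adjusted for depth, which was about 10900000, 11900000 and 7600000 reads in regions. The Npm1 libraries of MPP3 were within the range of the MPP3 WT libraries. Smc1a, the partner ATPase, whose region (chrX:152016013-152017211) also holds the start of Ribc1, was weaker. It reached 247.9 and 311.2 for LT-HSC WT, 374.0 for Dnmt3a, 200 and 110.3 for Npm1 and 236.1 and 292.5 for Dnmt3a;Npm1. The MPP3 values of Smc1a were 282.0 and 396.8 for WT, 336.4 and 136.3 for Dnmt3a, 278.0 and 374.0 for Npm1 and 323.2 for Dnmt3a;Npm1. The LT-HSC Npm1 values were again under those of LT-HSC WT, but MPP3 Dnmt3a B lay between the 2 LT-HSC Npm1 libraries.

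Rad21, the kleisin that closes the ring, has its leading region at chr15:51990420-51992551, inside the RefSeq bounds and over Gm52217. Rad21 read 487.1 and 433.3 for LT-HSC WT, 482.9 for Dnmt3a, 424.6 and 261.9 for Npm1, and 426.8 and 505.4 for Dnmt3a;Npm1. MPP3 libraries read 432.1 and 638.5 for WT, 609.5 and 390.9 for Dnmt3a, 466.2 and 619.7 for Npm1 and 603.0 for Dnmt3a;Npm1. This was the most even of the 10 regions: its highest library was 2.44 times its lowest, and LT-HSC Npm1 A fell just under WT B.

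Stag1, which binds Rad21 in one form of the ring, had the highest mean value of the leading regions (chr9:100642559-100644940, inside the gene bounds at the start of the RefSeq promoter table). In LT-HSC its normalised signal was 1002.9 and 955.6 for WT, 1087.3 for Dnmt3a, 508.2 and 226.5 for Npm1, and 850.7 and 1018.6 for Dnmt3a;Npm1. In MPP3 it was 851.7 and 1239.4 for WT, 416.7 and 650.0 for Dnmt3a, 850.2 and 1272.8 for Npm1 and 895.7 for Dnmt3a;Npm1. LT-HSC Npm1 and MPP3 Dnmt3a were thus the groups of low values. The alternative subunit Stag2 has 5 member regions, 4 of them side by side at its bound on the X chromosome. The strongest (chrX:42149579-42151319) read 273.7 and 100.1 for LT-HSC WT, 286.5 for Dnmt3a, 101.6 and 220.6 for Npm1 and 243.2 and 318.8 for Dnmt3a;Npm1. Its MPP3 values were 275.2 and 405.0 for WT, 273.1 and 265.8 for Dnmt3a, 226.1 and 366.8 for Npm1 and 319.5 for Dnmt3a;Npm1. Stag2 is the single leading region in which LT-HSC WT and Npm1 overlapped, and its lowest library was LT-HSC WT B with 54 reads. The smaller region across the Stag2 bound (chrX:42148692-42149459) did not overlap between them: 212.3 and 174.1 for LT-HSC WT against 72.1 and 74.8 for Npm1. It was singled out after its values were seen and was not called (limma adjusted p = 0.0664). Such a separation held at 29.1% of all tested regions, and MPP3 Dnmt3a A was lower still at 54.9.

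Nipbl, the loader, was described by its strongest region, chr15:8443247-8445792. It read 940.3 and 562.4 for LT-HSC WT, 701.3 for Dnmt3a, 368.8 and 317.1 for Npm1 and 534.8 and 675.3 for Dnmt3a;Npm1. MPP3 values were 473.1 and 896.5 for WT, 395.6 and 574.1 for Dnmt3a, 691.2 and 894.5 for Npm1 and 625.2 for Dnmt3a;Npm1. Both LT-HSC Npm1 libraries were below the other 12. Wapl, the release factor, shares its region (chr14:34673130-34674918) with 5830448L01Rik. Wapl read 645.6 and 475.3 for LT-HSC WT, 758.3 for Dnmt3a, 334.4 and 208.8 for Npm1 and 491.4 and 574.6 for Dnmt3a;Npm1, and in MPP3 376.4 and 782.7 for WT, 587.0 and 452.3 for Dnmt3a, 475.9 and 679.9 for Npm1 and 669.5 for Dnmt3a;Npm1. The 2 Npm1 libraries of LT-HSC were again the lowest of all.

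Pds5a and Pds5b, paralogues that bind the ring and act with Wapl and with the acetyltransferases that stabilise it, have leading regions at chr5:65696562-65698934 and chr5:150673323-150674688. Pds5a read 707.0 and 446.3 for LT-HSC WT, 784.6 for Dnmt3a, 444.2 and 258.0 for Npm1 and 652.9 and 625.4 for Dnmt3a;Npm1. The MPP3 libraries gave 565.2 and 962.9 for WT, 465.9 and 631.1 for Dnmt3a, 709.5 and 824.9 for Npm1 and 756.3 for Dnmt3a;Npm1. LT-HSC Npm1 A and WT B were level at Pds5a, and replicate B of Npm1 lay far below both. Pds5b read 570.7 and 509.3 for LT-HSC WT, 594.2 for Dnmt3a, 401.6 and 183.2 for Npm1 and 389.5 and 472.1 for Dnmt3a;Npm1. Its MPP3 values were 494.7 and 759.8 for WT, 450.4 and 569.6 for Dnmt3a, 532.2 and 656.7 for Npm1 and 520.8 for Dnmt3a;Npm1. Here Npm1 A lay between the 2 Dnmt3a;Npm1 libraries.

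Ctcf has its leading region at chr8:105635847-105638239, across the gene bound and over Gm5914. Its LT-HSC values were 1038.5 and 635.4 for WT, 900.3 for Dnmt3a, 375.4 and 319.0 for Npm1, and 558.0 and 551.8 for Dnmt3a;Npm1. MPP3 gave 819.9 and 1187.7 for WT, 484.2 and 686.9 for Dnmt3a, 902.1 and 1059.7 for Npm1 and 846.8 for Dnmt3a;Npm1. Ctcf was low in the Npm1 stem cells, and the Dnmt3a;Npm1 stem cells also stayed under both WT libraries. A member region 7590 bp outside the Pds5b bounds (chr5:150664715-150666123) is at the start of another gene, N4bp2l2, and is a member by position alone. It read 584.2 and 540.4 for LT-HSC WT, 625.7 for Dnmt3a, 124.6 and 128.0 for Npm1, and 413.7 and 496.6 for Dnmt3a;Npm1. In MPP3 it was 425.3 and 747.9 for WT, 377.3 and 409.9 for Dnmt3a, 503.0 and 679.2 for Npm1 and 558.7 for Dnmt3a;Npm1. The LT-HSC Npm1 replicates were close to each other and far under all other 12 libraries.

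**Figure D1:**
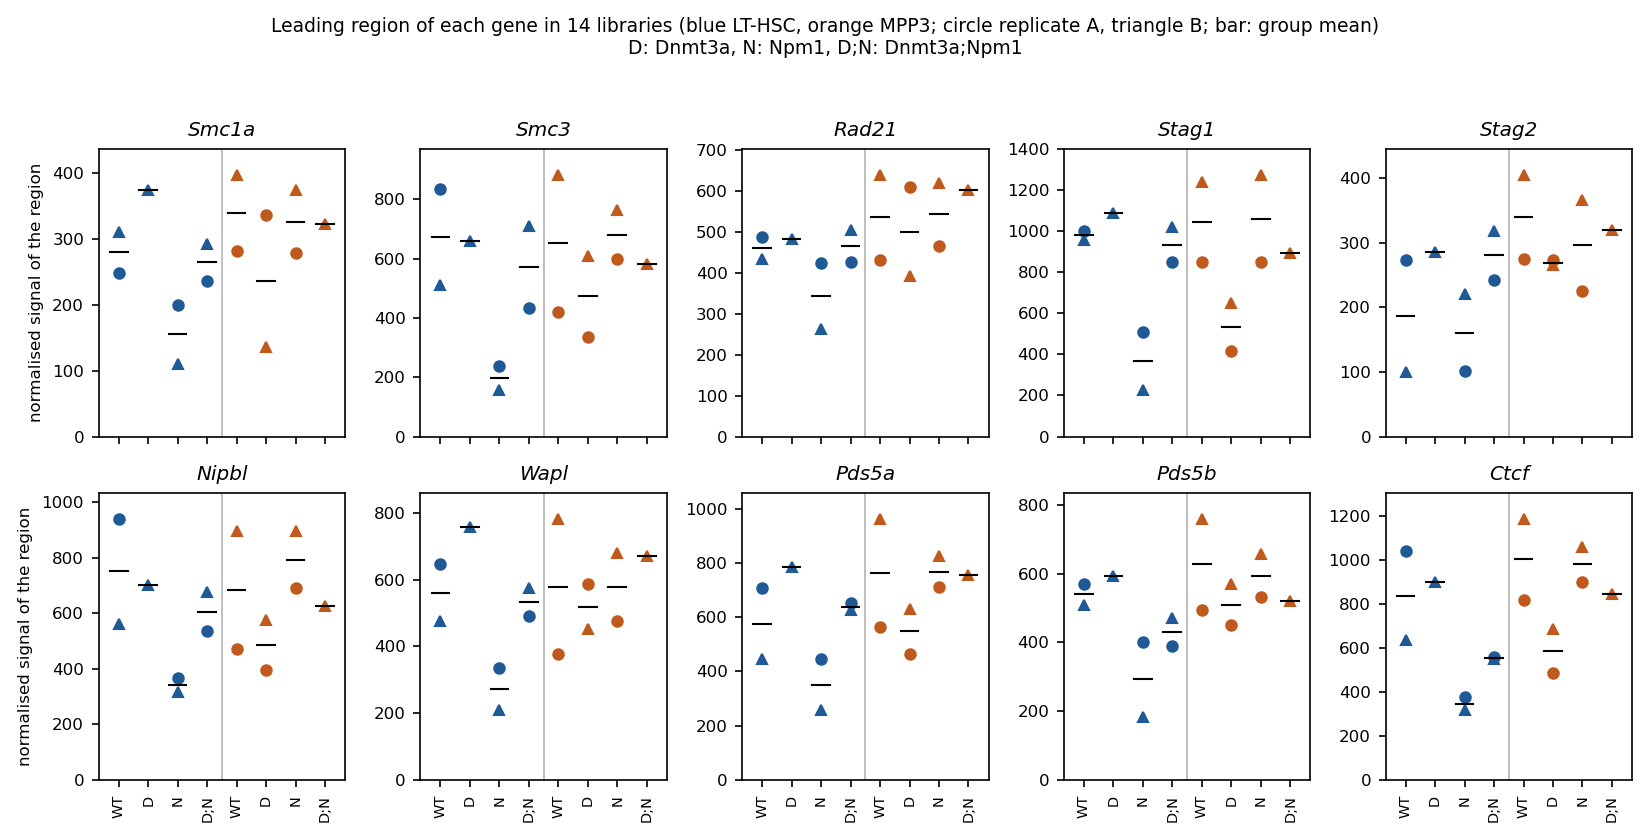
Normalised signal (y axis, linear from 0) of the leading region of each of the 10 genes by group (x axis; LT-HSC to the left of the grey line, MPP3 to the right); points are libraries and bars group means. LT-HSC Npm1 B is the lowest library in 9 of the 10 panels, and MPP3 WT B the highest in 8.

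Across the 14 libraries the leading regions were ordered per length, as normalised signal per kb (mean ± SD, n = 14, all groups pooled). Smc3 had the highest level at 402 ± 158, followed by Pds5b at 372 ± 98.9, Stag1 at 355 ± 127, Ctcf at 309 ± 111 and Wapl at 300 ± 92.3. Pds5a at 266 ± 77.5, Nipbl at 243 ± 77.7, Smc1a at 232 ± 71.8, Rad21 at 227 ± 49.2 and Stag2 at 151 ± 48.9 were lower. Only the last step, from Rad21 to Stag2, was larger than the SD of either neighbour, and Rad21 exceeded Stag2 in 13 of 14 libraries. The other 8 steps were within the spread and held in 7 to 9 libraries each. The regions rose and fell with the library as a whole: the summed signal of the 10 ran from 2262.9 for LT-HSC Npm1 B and 3394.9 for LT-HSC Npm1 A to 8150.3 in MPP3 WT B, which are also the 2 libraries of lowest and the library of highest enrichment. LT-HSC WT A and B, of the same genotype, summed to 6747.5 and 4940.3.

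**Figure D2:**
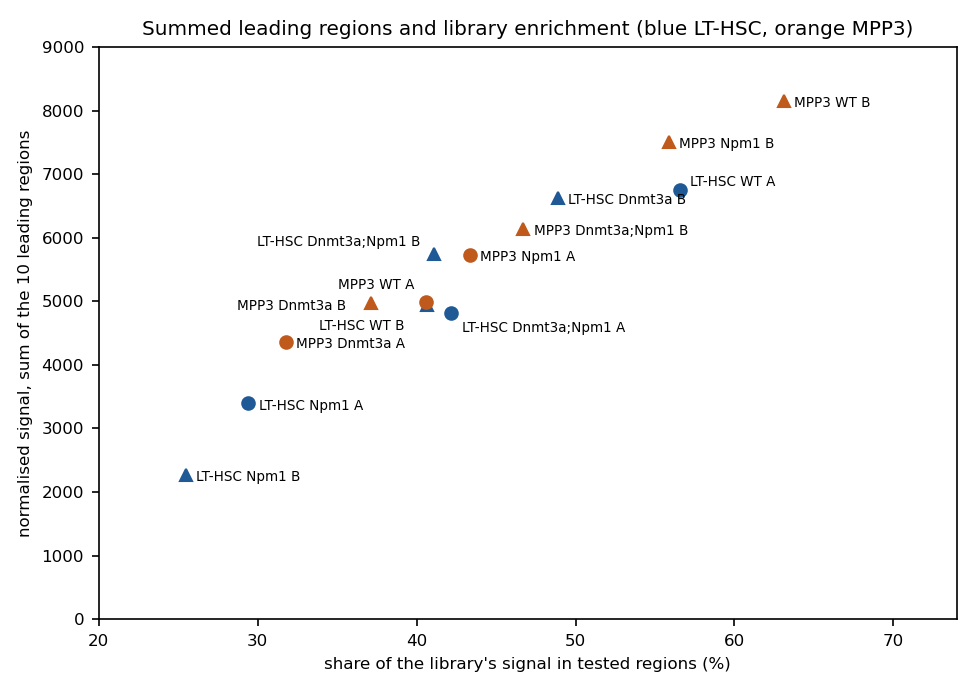
Summed normalised signal of the 10 leading regions (y axis, linear from 0) against the share of each library's signal that lies in tested regions (x axis, percent, from 20), 1 point per library. The sum follows the share in both cell types, from LT-HSC Npm1 B (25.5%, sum 2262.9) to MPP3 WT B (63.1%, sum 8150.3).

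Npm1 is mutated in acute myeloid leukaemia, and LT-HSC Npm1 was compared with LT-HSC WT at these genes. The LT-HSC Npm1 libraries are also those of lowest enrichment, so a difference cannot be assigned to the allele alone. By value, 20 of the 24 member regions were lower in LT-HSC Npm1 than in LT-HSC WT and 4 were higher. Of the 24, 4 were called lower and none higher, where 4.32% of all tested regions were called lower. These were Smc3 (log2 difference -1.74, SE 0.41, adjusted p = 0.0231), Stag1 (-1.52, SE 0.38, adjusted p = 0.0273), Ctcf (-1.22, SE 0.34, adjusted p = 0.0400) and the N4bp2l2 start (-2.12, SE 0.35, adjusted p = 0.0142), with both Npm1 libraries under both WT libraries at each. The test was limma on log2(normalised signal + 4) over all 59189 regions with Benjamini-Hochberg adjustment, n = 2 per group and the spread shared by 8 groups. On this scale a fold change of low regions is understated.

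The other 7 leading regions had negative differences that did not pass: Nipbl at -1.08 (limma adjusted p = 0.0825), Wapl at -1.06 (0.0970), Pds5b at -0.98 (0.117), Smc1a at -0.88 (0.212), Pds5a at -0.72 (0.242), Rad21 at -0.46 (0.480) and Stag2 at -0.14 (0.887). In 9 of the 10 the Npm1 and WT libraries did not overlap, Stag2 being the exception. The same separation, with Npm1 lower, held at 52.7% of gene-start regions and 29.1% of all tested regions. Among the 14 other member regions, the N4bp2l2 start was the only call, and the median difference was -0.18 against -1.02 for the leading regions. The small region across the Stag2 bound came next at -1.34 (SE 0.435, adjusted p = 0.0664). The highest value was 1.30 (SE 0.665, adjusted p = 0.244), at a weak region over Carmil2, 5003 bp outside the Ctcf bounds. Its signal was 31.6 and 67.0 for WT and 180.3 and 78.8 for Npm1.

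The lower signal was shared by gene starts in general. In this comparison 5.71% of all tested regions were called, 4.32% as lower, and of 14777 regions near a gene start 11.8% were called lower. Among the 2513 gene-start regions of mean value 500 or more, the level of 8 of the 10 leading regions, 38.7% were called lower and the median difference was -1.125. The 10 leading regions had 3 calls and a median of -1.02, so neither their count nor their median stood apart from gene starts of their level. Over all tested regions the median was -0.005 and over all gene-start regions -0.58. Of the 10 leading regions Smc3 lay lowest among the 14777 gene-start regions, a set not matched for level. There 2.1% had a lower difference, against 5.4% for Stag1, 15.6% for Ctcf and 0.3% for the N4bp2l2 start.

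**Figure D3:**
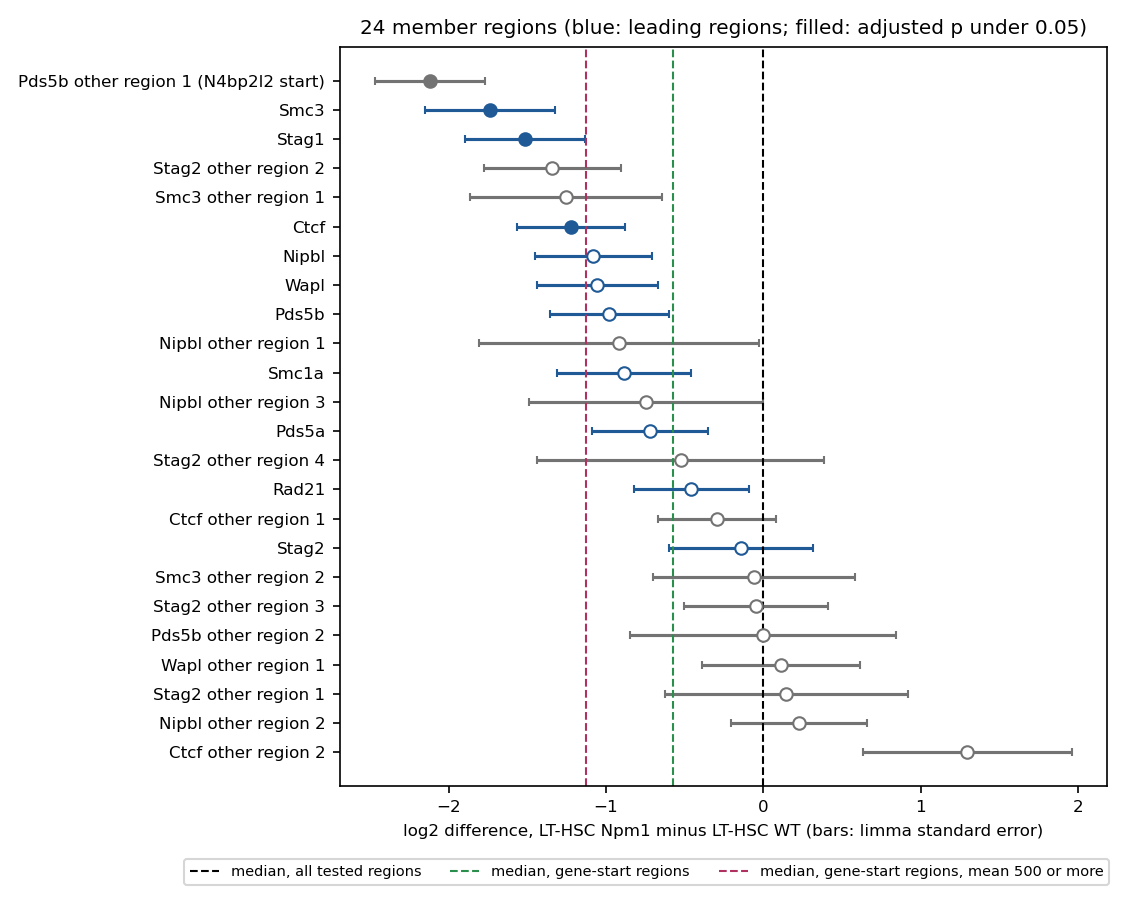
Log2 difference between LT-HSC Npm1 and LT-HSC WT (x axis; bars are limma standard errors) for the 24 member regions, sorted; blue marks leading regions and filled points those with an adjusted p under 0.05. The 4 filled points are the N4bp2l2 start, Smc3, Stag1 and Ctcf, and the 10 blue points are all below 0 around the dashed median of gene starts of mean value 500 or more (-1.125).

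The calls at these genes depended on the processing. With the filter raised to a mean value of at least 100, which changed the scale factors and also cut the regions tested and adjusted over to 25129 (17 of them members), 2 member regions were called, Smc3 at -1.20 (adjusted p = 0.0413) and the N4bp2l2 start at -1.58 (adjusted p = 0.00661). Stag1 at -0.97 (adjusted p = 0.0569) and Ctcf at -0.68 (adjusted p = 0.111) then missed the threshold, and Rad21 and Stag2 turned positive. With each library scaled to its total, which moved the median of all regions to -0.57, 10 member regions were called lower. Under cyclic loess, which removes any trend with signal level, no member was called: the N4bp2l2 start stood at -1.17 (adjusted p = 0.0562), Smc3 at -0.72 (adjusted p = 0.257), Stag1 at -0.31 (adjusted p = 0.548) and Ctcf at -0.06 (adjusted p = 0.926). With the share of signal in tested regions as a covariate no member and no region of the genome was called, at Smc3 -0.40 and at the N4bp2l2 start -1.43 (adjusted p = 0.953). In LT-HSC the Npm1 libraries are the 2 of lowest enrichment, so genotype and enrichment cannot be told apart within this cell type. Leaving out LT-HSC Npm1 B or LT-HSC WT A left a single member called, the N4bp2l2 start, at -2.139 (adjusted p = 0.0402) and -1.995 (adjusted p = 0.0452). Without LT-HSC WT B the N4bp2l2 start and Smc3 were called, with Stag1 at an adjusted p of 0.0821. The Ctcf call held in 6 of 14 fits that left out a library, with differences from -1.574 to -0.802. It was lost without LT-HSC WT A (adjusted p = 0.371) or B (0.0557), without LT-HSC Npm1 A (0.077) or B (0.203), without LT-HSC Dnmt3a;Npm1 A (0.0556) or B (0.0552) and without MPP3 Npm1 A (0.0577) or B (0.059).

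**Figure D4:**
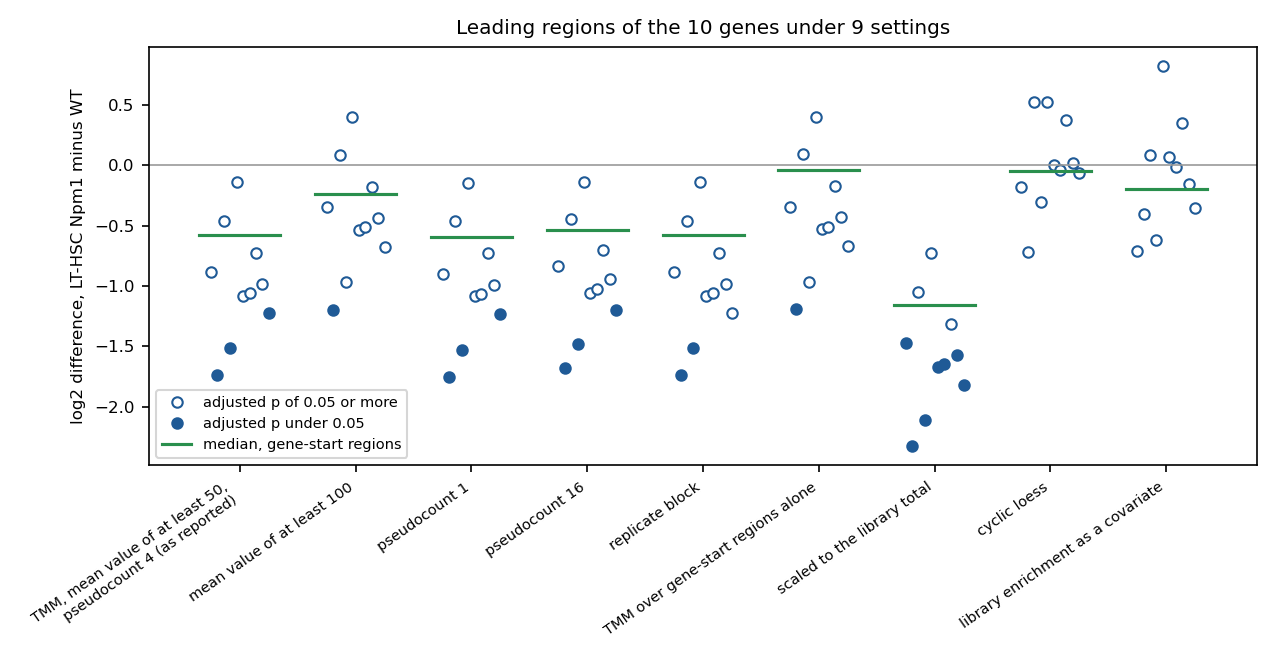
Log2 difference between LT-HSC Npm1 and WT (y axis) for the 10 leading regions under 9 settings (x axis); filled points had an adjusted p under 0.05 and green bars are the median of all gene-start regions in that setting. Under the reported setting the 10 points are below 0 with 3 filled, and under cyclic loess and with the enrichment covariate they lie on both sides of 0 with none filled.

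LT-HSC Dnmt3a;Npm1 was also compared with LT-HSC Npm1, the group of lowest enrichment, so a difference cannot be assigned to the second allele alone. Of the member regions, the N4bp2l2 start alone was called, higher by 1.81 (SE 0.35, limma adjusted p = 0.0346), where 1.13% of all regions were called and 0.973% as higher. All 10 leading regions had a positive difference, with a median of 0.84 against 0.48 over gene-start regions and 0.995 over those of mean value at least 500. Stag1 at 1.44 (SE 0.38, adjusted p = 0.0553) and Smc3 at 1.503 (SE 0.41, adjusted p = 0.0624) were nearest to the threshold, and Ctcf stood at 0.68 (SE 0.34, adjusted p = 0.290). At 9 of the 10 the 2 groups did not overlap, Pds5b being the exception. The share of all gene starts separated in this direction was not counted, so the 9 cannot be read as particular to these genes. The call at the N4bp2l2 start did not hold without LT-HSC Dnmt3a;Npm1 B (adjusted p = 0.307), LT-HSC Npm1 A (0.0546) or B (0.0914), LT-HSC WT A (0.0631) or B (0.052), or MPP3 Npm1 B (0.0539). Without MPP3 WT A or B, Smc3 and Stag1 were called as well. The N4bp2l2 call was also lost under cyclic loess (0.978, adjusted p = 0.177) and with the enrichment covariate (1.295, adjusted p = 0.854), where the median of the leading regions was 0.018 with 5 of 10 positive and 0.13 with 9 positive. The calls here and in Npm1 against WT use the same 2 Npm1 libraries.

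In LT-HSC Dnmt3a;Npm1 against WT no member region was called by limma, 3 of the 24 had an unadjusted p under 0.05, and 0.00338% of all regions were called. The leading regions had a median of -0.08 (0.115 without LT-HSC WT A, -0.212 without LT-HSC WT B, 0.065 without LT-HSC Dnmt3a;Npm1 A and -0.216 without B), from -0.55 at Ctcf (SE 0.34, adjusted p = 0.775) to 0.73 at Stag2 (SE 0.46, adjusted p = 0.773). At Ctcf and Pds5b both Dnmt3a;Npm1 libraries were under both WT libraries, as at 21.5% of gene-start regions and 16.8% of all tested regions. The single LT-HSC Dnmt3a library gave no member call, with 1 member at an unadjusted p under 0.05, 0% of all regions called and 1103 regions at such a p. Its leading regions were at a median of 0.15 (0.391 without LT-HSC WT A and 0.061 without LT-HSC WT B), with Stag2 at 0.77 (SE 0.56) and Pds5a at 0.48 (SE 0.45) the highest.

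In MPP3 Npm1 against MPP3 WT the median of the leading regions was 0.025, from -0.21 at Stag2 (SE 0.46) to 0.27 at Nipbl (SE 0.37). No member was called by limma and none had an unadjusted p under 0.05. Of all regions 0% were called and 68 had such a p. The median turned with the library left out: it was -0.313 with all 10 negative without MPP3 WT A, 0.30 with all 10 positive without MPP3 WT B, 0.198 without MPP3 Npm1 A and -0.18 without MPP3 Npm1 B. The difference between the Npm1 effects in LT-HSC and MPP3 was tested directly as an interaction. Of the leading regions Smc3 had the most negative value at -1.89 (SE 0.585, limma adjusted p = 0.339), then Stag1 at -1.53 (SE 0.54, adjusted p = 0.352) and Nipbl at -1.35 (SE 0.53, adjusted p = 0.370), and Ctcf stood at -1.21 (SE 0.49, adjusted p = 0.382). The median of the 10 was -1.025 against -1.17 for gene starts of mean value at least 500. It was -0.609 without MPP3 WT A, -0.633 without LT-HSC Npm1 B, -0.202 with the enrichment covariate and -0.047 under cyclic loess. No member passed, 6 had an unadjusted p under 0.05, and of all regions 0% were called with 6465 at such a p. A difference between the cell types in the effect of Npm1 on these genes is therefore not shown.

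MPP3 Dnmt3a against MPP3 WT gave a negative difference at each of the 10 leading regions, with a median of -0.43 against -0.29 over gene-start regions and -0.46 over those of mean value at least 500. Stag1 was at -0.98 (SE 0.38, limma adjusted p = 0.408), Ctcf at -0.77 (SE 0.34, adjusted p = 0.457) and Smc1a at -0.63 (SE 0.425, adjusted p = 0.614). Stag1, Ctcf and Stag2 had both Dnmt3a libraries under both WT libraries, as had 28.5% of gene-start regions and 20.1% of all tested regions. The small region across the Stag2 bound had the largest difference of the members, -1.62 (SE 0.435, adjusted p = 0.291), with 54.9 and 119.5 for Dnmt3a against 217.2 and 305.3 for WT. None passed, 4 members had an unadjusted p under 0.05, and 0.00338% of all regions were called (6067 had such a p). The MPP3 Dnmt3a libraries are those of lowest enrichment in MPP3, 31.8% and 37.1% against 40.6% and 63.1% in WT. With the enrichment covariate the median of the leading regions was 0.298 with 3 of 10 negative, and under cyclic loess 0.01 with 4 negative. The negative direction also rested on MPP3 WT B: without that library the median was -0.01 with 5 of 10 negative, and without MPP3 WT A it was -0.849. In the single MPP3 Dnmt3a;Npm1 library the leading regions were at a median of -0.06 (-0.407 without MPP3 WT A and 0.306 without MPP3 WT B) with no member called and none at an unadjusted p under 0.05. In that comparison 0% of all regions were called and 285 had such a p.

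**Figure D5:**
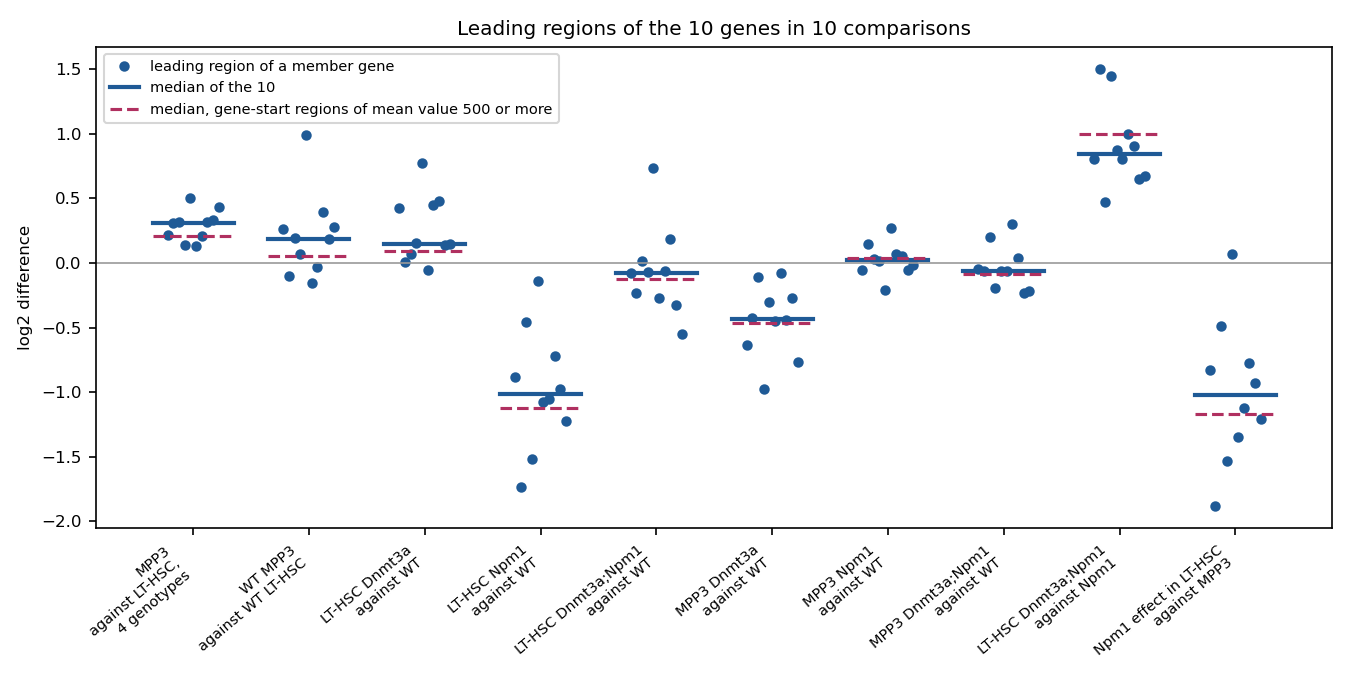
Log2 difference (y axis) of the 10 leading regions in each of the 10 comparisons (x axis; points are genes, the solid bar their median), beside the median of gene-start regions of mean value at least 500 (dashed). The medians of the 10 genes follow the dashed bars: -1.02 and -1.125 in LT-HSC Npm1 against WT, and 0.025 and 0.037 in MPP3 Npm1 against WT.

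Between the cell types, averaged over the 4 genotypes, all 10 leading regions were higher in MPP3 by value, with a median of 0.31 against 0.09 over gene-start regions and 0.21 over those of mean value at least 500. The median was 0.197 without MPP3 WT B, 0.155 with the enrichment covariate and 0.114 under cyclic loess, the last 2 with 8 of 10 positive. No member was called by limma, 3 had an unadjusted p under 0.05, and 0.145% of all regions were called (7378 had such a p). The 3 were a region 9788 bp outside Wapl (chr14:34661236-34662591) at -0.69 (SE 0.28, adjusted p = 0.320), the N4bp2l2 start at 0.45 (SE 0.20, adjusted p = 0.349) and Ctcf at 0.43 (SE 0.19, adjusted p = 0.361). Of the 3 the Wapl-side region alone was lower in MPP3, and by value 5 of all 24 member regions were. The Wapl-side signal was 88.3 to 248.2 in 6 LT-HSC libraries and 66.6 in the seventh, against 33.5 to 112.4 in MPP3. Stag2 stood at 0.51 (SE 0.255, adjusted p = 0.424). The average over genotypes includes LT-HSC Npm1, the 2 libraries of lowest enrichment. In WT alone 7 leading regions were positive and 3 negative: Smc3 at -0.10, Nipbl at -0.158 and Wapl at -0.029. Their median in WT was 0.19 (-0.105 without MPP3 WT B, 0.494 without MPP3 WT A, 0.298 without LT-HSC WT A and 0.048 without LT-HSC WT B). Stag2 was at 0.99 (SE 0.46, limma adjusted p = 0.907), and no member was called, with 2 at an unadjusted p under 0.05. Of all regions 0% were called between the WT groups and 3153 had such a p.

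Genes that act with the ring were read from 2 lists. The first held 30 genes of cohesin cofactors and of the related condensin and Smc5 complexes, of which 28 had a tested gene-start region (Smc1b and Rad21l had none). In LT-HSC Npm1 against WT 6 of the 28 were called lower and none higher, all 28 were negative, and the median was -0.98. Among those called were Sgo1, the protector of centromeric cohesin (-1.82, SE 0.36, limma adjusted p = 0.0142), Smc5 of the complex with Smc6 (-1.68, SE 0.40) and the condensin ATPase Smc2 (-1.46, SE 0.36), with Smc6 and Cdca5 at larger p. The second list held 18 genes, the Ctcf paralogue Ctcfl, which had no tested region, and factors linked to Ctcf at loops. Of its 17 tested genes 5 were called lower and none higher, all 17 were negative, and the median was -0.81. Its leading calls were the chromatin remodeller Chd8 (-1.72, SE 0.36, limma adjusted p = 0.0148), the zinc finger factors Yy1 (-1.496, SE 0.33) and Zfp143 (-1.54, SE 0.37) and the RNA helicase Ddx5 (-1.26, SE 0.33), with Top2a after them. The shares called lower are to be read beside 11.8% of gene-start regions and 38.7% of those of mean value at least 500. In Dnmt3a;Npm1 against Npm1, 3 of 28 (Sgo1 at 2.01, Smc2 at 1.55 and the condensin subunit Ncapg at 1.56) and 2 of 17 (Chd8 at 1.78 and Yy1 at 1.55) were called higher and none lower, with medians of 0.855 and 0.74. In that comparison 411 of 14777 gene-start regions were called higher, as were 0.973% of all regions. In the other 8 comparisons no gene of either list was called.

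The mean profile of the 10 leading regions over the 14 libraries (log2 signal, standardised per region) was set beside 14261 other gene starts. The most alike were the starts of Mrpl41 (Pearson r = 0.985), Atp8a1 (r = 0.984), Med19 (r = 0.982), 1110020A21Rik (r = 0.982) and Mier1 (r = 0.979). The regions of Mrpl41, Med19 and 1110020A21Rik also hold the starts of Pnpla7, Tmx2 and Ppm1b, in that order. The median over all starts was 0.651, and a member region had r from 0.518 to 0.940 to the mean of the other 9. These r values are descriptions over 14 libraries that share the differences in enrichment, and no p is given. The marker lists were also summed in the Npm1 and WT stem cells, with no test. The summed signal of 59 myeloid regions was 7438 to 8265 in LT-HSC Npm1 against 6433 to 6884 in LT-HSC WT, that of 51 erythroid and megakaryocyte regions 8246 to 9668 against 12429 to 12445, and that of 31 niche cell regions 3311 to 3887 against 1638 to 3539. The 44 lymphoid regions summed to 4888 to 5254 against 4255 to 5928, and the 7 mast cell and basophil regions to 584 to 607 against 318 to 558. LT-HSC marker regions summed to 9776 to 11195 against 12866 to 13394. The niche and lymphoid sums overlapped between the groups, and the other 4 did not. The part of these in the values of the cohesin and Ctcf genes was not tested.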

How the data were processed

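ATAC-seq of 14 libraries in 8 groups was used. The deposited table gives signal per region for 705361 mm10 regions. The submitters' processing notes name R 3.6.0, HOMER 4.10, edgeR 3.26.4 and DiffBind 2.12.0 without saying what each did. The aligner, peak caller and removal of problem regions are not given in the sources used here, and none were removed here. The deposited signal is whole-number and scaled: in 8 libraries 100.0% of low values (60 or less) were multiples, after rounding, of a step of 1.101 to 2.618, the value of 1 read. In 6 no step was found and their depth is unknown, so no count test was run.

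Over the 59189 regions with a mean of at least 50, limma 3.58.1 (R 4.3.3; trended, robust prior) was fitted to log2(value/TMM factor + 4), where TMM trimmed 30% of M and 5% of A values. The fit had 8 group means and 6 residual degrees of freedom. The two-sided p was adjusted by Benjamini-Hochberg over all regions, and a call is an adjusted p below 0.05. A lone library was taken to vary as the rest do. SDs are over libraries. The fit was also run on simulated data with independent noise around a common mean per region. These lacked the enrichment differences between libraries, so they do not show how the calls fare under such differences.

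The member genes, lists and tests were chosen with earlier results of these data known. Named were all 10 genes, any called member region, the 3 of smallest p in 2 comparisons, up to 4 called genes per list (1 gene that the rule names is not reported here), and the 5 starts most alike; further genes named in the lists, and members singled out for their values, were chosen after these were seen. Gene bounds and promoters are from RefSeq (GRCm38.p6). The mast cell and basophil, and lymphoid, marker lists had median MPP3 minus LT-HSC log2 differences of 0.11 and -0.235, the erythroid and megakaryocyte list -0.354 and the niche list -0.057. Alternatives were another filter, pseudocounts of 1 and 16, 3 other scalings, an enrichment covariate, a replicate block and leaving out each library.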

Additional observations from a re-analysis of the deposited data

How the results depend on the processing

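Directions of Smc3, Stag1, Ctcf and the N4bp2l2 start in LT-HSC Npm1 against WT were negative under every setting run. With a mean value of at least 100, 1218 regions were called there (576 higher, 642 lower) with 2 members, and Rad21 (0.089) and Stag2 (0.40) changed sign. Calls were then 420 in Dnmt3a;Npm1 against Npm1 in LT-HSC, 1 in LT-HSC Dnmt3a;Npm1 against WT and 0 in MPP3 Dnmt3a against WT. With TMM over gene-start regions alone, a setting chosen after seeing the data that moved the median of all regions to 0.52, LT-HSC Npm1 against WT had 1892 calls (1354 higher, 538 lower) with 2 members, and Rad21 (0.091) and Stag2 (0.40) were positive. It gave 35 calls between cell types, 1 between WT groups, 110 in Dnmt3a;Npm1 against Npm1 and 0 in LT-HSC Dnmt3a;Npm1 and MPP3 Dnmt3a against WT. Scaling to the library total gave 8905 calls (464 higher, 8441 lower) and 10 members in LT-HSC Npm1 against WT, 1645 and 3 in Dnmt3a;Npm1 against Npm1, 327 between cell types, 112 in MPP3 Dnmt3a and 1 between WT groups. Cyclic loess left 93 (81 higher, 12 lower) and 0 members in LT-HSC Npm1 against WT, 1 and 0 in Dnmt3a;Npm1 against Npm1, and 0 in LT-HSC Dnmt3a;Npm1 and MPP3 Dnmt3a against WT. It turned Rad21 (0.53), Stag2 (0.52), Nipbl (0.003), Pds5a (0.37) and Pds5b (0.021) positive in LT-HSC Npm1 against WT, Rad21 (-0.39), Nipbl (-0.15), Pds5a (-0.063), Pds5b (-0.23) and Ctcf (-0.36) negative in Dnmt3a;Npm1 against Npm1, and Stag1 (-0.10) and Nipbl (-0.07) negative between cell types. The enrichment covariate gave 0 regions and 0 members in LT-HSC Npm1 against WT and in Dnmt3a;Npm1 against Npm1, 6 calls between cell types, 1 between WT groups, 1 in LT-HSC Dnmt3a;Npm1, 1 in MPP3 Npm1 and 0 in MPP3 Dnmt3a against WT. With it Rad21 (0.083), Stag2 (0.82), Nipbl (0.068) and Pds5a (0.35) were positive in LT-HSC Npm1 against WT, Nipbl (-0.052) was negative in Dnmt3a;Npm1 against Npm1, and Stag1 (-0.021) and Nipbl (-0.072) between cell types. A pseudocount of 1 gave 0 calls in MPP3 Dnmt3a, and one of 16 gave 207 between cell types, 1058 with 2 members in Dnmt3a;Npm1 against Npm1, 1 in LT-HSC Dnmt3a;Npm1 and 0 in MPP3 Dnmt3a against WT. The causes were not tested.

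Correlations of A minus B between groups ran from -0.296 to 0.432, with 1 of 15 over 0.1, that of MPP3 WT with MPP3 Npm1. Libraries A and B also differ in enrichment, so whether the letters pair libraries cannot be settled from these values. With the replicate block, 3 members were called in LT-HSC Npm1 against WT, Ctcf being lost (adjusted p = 0.054). The replicate block gave 328 regions in Dnmt3a;Npm1 against Npm1, and 0 in LT-HSC Dnmt3a;Npm1 and in MPP3 Dnmt3a against WT.

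Leaving out 1 library gave 148 (without LT-HSC Npm1 B) to 4629 regions (without MPP3 Dnmt3a A) and 1 to 5 members in LT-HSC Npm1 against WT, 0 (without LT-HSC Dnmt3a;Npm1 B) to 2820 regions (without LT-HSC Dnmt3a;Npm1 A) and 0 to 3 members in Dnmt3a;Npm1 against Npm1, and 0 to 585 regions and 0 to 1 member (both highest without LT-HSC Dnmt3a;Npm1 A) in LT-HSC Dnmt3a;Npm1 against WT. It gave 1 (without MPP3 WT B) to 371 regions (without MPP3 Dnmt3a A) between cell types, 0 to 59 (without LT-HSC WT A) between WT groups, and 0 to 536 regions with 0 to 1 member (both highest without MPP3 Dnmt3a B) in MPP3 Dnmt3a against WT. Stag2 in LT-HSC Npm1 against WT ran from -0.85 to 0.63, positive without LT-HSC WT A (0.63) or LT-HSC Npm1 A (0.40), and Stag1 between cell types from -0.004 (without LT-HSC Npm1 B) to 0.284. Groups of 2 libraries and an unknown depth in 6 libraries limit precision.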
